A study of Mus musculus with 19 samples.

Results

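Arg1, Chil3, Retnla, Mrc1, Nos2, Cd163 and Il10, 7 genes used to describe how macrophages are activated, were followed through 19 mouse mammary tumours. They are 7 of the 19087 genes named on the array, found by their symbol in the platform annotation, and they were read by 26 spots. Of these, Arg1 and Chil3 were chosen by their measured log2 ratios, since they differed in opposite directions between treated and untreated tumours, so their values against untreated tumours are given as a description, without a test. In these tumours Arg1 was higher and Chil3 lower after chemotherapy, and Chil3 was lowest in the 3 tumours called responders. None of the other 5 genes passed the test in any comparison, and neither Arg1 nor Chil3 passed where they were tested. For Chil3 in responders against non-responders the adjusted p was 0.528 (limma). Of 14984 genes measured on every array, 0.901% had all responders below all non-responders, as Chil3 did.

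All tumours, controls included, were mammary adenocarcinomas from mice of the FVB strain with a transgene that joins the rat C3(1) promoter to the Simian virus 40 T antigen. Untreated tumours numbered 7, and another 12 were taken from mice on carboplatin, which crosslinks DNA, and taxol (paclitaxel), which stabilises microtubules. After 2 weeks of treatment there were 4 non-responders and 1 responder, and after 3 weeks 5 non-responders and 2 responders. Each tumour was measured once on a 2-colour array against RNA of a whole-mouse reference. How response was judged, the dose and the age of the mice are not in the labels, so treatment cannot be told apart from age or cohort. The titles give the tumours of a group different mouse numbers, but nothing in the labels states that they were processed separately. P-values therefore set a difference against the spread between these samples only. Tumours are numbered within their group in an arbitrary order. Non-responder 1 and responder 3 carry 1 mouse number, with a correlation of 0.758 between their arrays, within the range of 0.484 to 0.817 over all pairs. The titles come in 2 spellings, and the spelling is not stated to mark a batch. All 3 responders share the hyphen spelling with 2 untreated tumours and 2 non-responders, while the other 12 arrays (5 untreated, 7 non-responders) have the other spelling.

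Macrophages take on different programmes according to the signals they meet. Interferon-gamma and microbial products induce the classical programme, in which Nos2 makes nitric oxide from arginine. The cytokines IL-4 and IL-13 act through the receptor chain Il4ra and the transcription factor Stat6 and induce the alternative programme, in which Arg1 splits arginine into ornithine and urea, and Chil3 (Ym1), Retnla (Fizz1) and the mannose receptor Mrc1 are textbook mouse markers. Cd163, the scavenger receptor for haemoglobin bound to haptoglobin, and Il10, an anti-inflammatory cytokine, are used as markers of regulatory and tissue-resident macrophages. Several of these genes are not restricted to macrophages: in mice, neutrophils and some epithelia also make Chil3, liver and myeloid suppressor cells make Arg1, and adipose tissue makes Retnla. In RNA of a whole tumour, fewer cells of a type and less RNA per cell cannot be told apart.

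Chil3 lies on mouse chromosome 3 beside its close relative Chil4 (Ym2). The 250 bases before the annotated start of each are shown because these sequences are 90.5% identical where they align. Chil3 and Chil4 had differences of opposite sign between treated and untreated tumours. The sign of Chil3 was part of its choice, and the difference of Chil4 did not pass the test. The 250 bases before Retnla are shown as those of another gene of the alternative programme. The sequences are RefSeq's, on GRCm38.p6, and run 5′ to 3′ towards the gene. Capitals mark the palindromic motif TTCNNNGAA in Chil3 and Chil4 and TTCNNNNGAA in Retnla, spacings of the kind that STAT factors bind.
Chil3, chr3:106167565-106167814, strand minus: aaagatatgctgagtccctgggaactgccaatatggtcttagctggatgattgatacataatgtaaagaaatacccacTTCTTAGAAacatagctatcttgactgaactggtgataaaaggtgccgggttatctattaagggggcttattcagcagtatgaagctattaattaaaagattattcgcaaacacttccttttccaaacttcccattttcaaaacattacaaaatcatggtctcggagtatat
Chil4, chr3:106219480-106219729, strand minus: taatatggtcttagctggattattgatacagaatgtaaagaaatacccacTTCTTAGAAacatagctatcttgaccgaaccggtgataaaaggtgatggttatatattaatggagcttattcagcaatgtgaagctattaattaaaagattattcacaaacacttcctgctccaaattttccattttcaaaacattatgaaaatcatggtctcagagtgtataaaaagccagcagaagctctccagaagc
Retnla, chr16:48842359-48842608, strand plus: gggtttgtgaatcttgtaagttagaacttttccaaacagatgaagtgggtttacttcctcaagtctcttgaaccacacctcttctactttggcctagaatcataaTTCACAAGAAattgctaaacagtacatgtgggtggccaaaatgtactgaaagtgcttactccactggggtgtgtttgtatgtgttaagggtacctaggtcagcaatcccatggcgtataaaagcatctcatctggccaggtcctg
Aligned with each other, the Chil3 and Chil4 stretches were identical in 201 of 222 columns (90.5%), with 2 gaps. The annotated starts differ: the base 1 before the start of Chil3 aligned with the base 29 before that of Chil4. The motif TTCTTAGAA stood in both at the aligned place, from base 172 to 164 before the start of Chil3 and from 200 to 192 before that of Chil4. In Retnla, TTCACAAGAA ran from base 145 to 136. Read on both strands, with the spacings counted separately, TTCNNNGAA was found in 7.02% and TTCNNNNGAA in 5.85% of 32851 windows of the same length. A match in these letters is a description and not a binding site. The upstream windows of Mrc1 and Cd163 held neither spacing, and Arg1, Nos2 and Il10 are named only.

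Arg1 was measured by 1 spot on every array. Values are log2 ratios, likely of tumour to reference, so 0 means the level of the reference and a difference of 1 is a doubling. In untreated tumours Arg1 was lowest at -4.27, with a median of -1.91 and a highest value of -0.60 (mean -1.79 ± 1.26, SD, n = 7). In non-responders it ran from -1.05 over a median of -0.18 to 0.92 (mean 0.03 ± 0.68, SD, n = 9). The responders had 1.89, 0.49 and -0.47 (mean 0.64 ± 1.18, SD, n = 3). All 12 treated tumours lay above the mean of the untreated ones, and 11 of 12 lay above every untreated tumour. The exception was a non-responder at 2 weeks with -1.05, which lay below the untreated values of -0.60 and -0.67. The treated mean was 1.97 ± 0.44 (SE) above the untreated one, a 3.91-fold difference. The non-responder mean was 1.82 ± 0.47 and the responder mean 2.42 ± 0.64 above it, and these differences share the untreated arrays. The lowest untreated tumour, replicate 4, also had the lowest mean level of 22 macrophage markers (0.522) and of 13 neutrophil markers (-2.75) among all 19 tumours. The same held for dendritic cell (-0.061) and T and B cell markers (-0.776), and for the activation, signalling, arginine and scavenging lists read below. It did not hold for eosinophil, mast cell, adipocyte, squamous epithelium, hepatocyte, endothelial or epithelial markers. Without that tumour the treated mean stood 1.55 above the untreated one. What these list levels contribute to the low value was not tested.

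Chil3 went the other way. Its only spot gave values from -0.23 to 2.39 in untreated tumours, with a median of 1.67 (mean 1.44 ± 0.84, SD, n = 7). Non-responders ran from -1.41 over a median of -0.57 to 0.47 (mean -0.48 ± 0.71, SD, n = 9). The responders had -2.11, -1.67 and -3.54 (mean -2.44 ± 0.98, SD, n = 3). The treated tumours were below the mean of the untreated ones in 12 of 12 cases. The single untreated tumour below 0, replicate 5 at -0.23, was also below 3 non-responders, and the other 9 treated tumours lay below every untreated one. Treated minus untreated came to -2.41 ± 0.47 (SE), a 5.31-fold lower level. Against untreated tumours the non-responder mean was 3.78-fold and the responder mean 14.7-fold lower, with the untreated arrays shared between both.

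**Figure D1:**
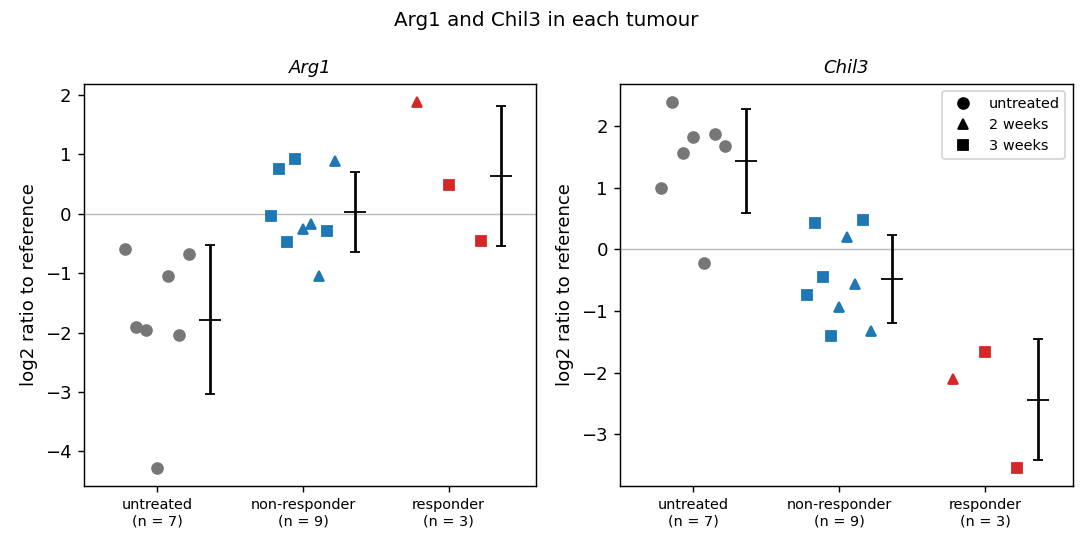
Arg1 (left) and Chil3 (right) as log2 ratio to the reference in each tumour. Points are tumours (grey circles untreated, blue non-responders, red responders, triangles 2 weeks, squares 3 weeks), and the bars beside them are the group mean ± SD. The mean of Arg1 is -1.79 in untreated tumours and 0.03 in non-responders, and that of Chil3 is 1.44, -0.48 and -2.44 in untreated, non-responder and responder tumours.

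The responders were also compared with the non-responders. Neither gene was picked on this contrast, but earlier results of these data were known when the genes and the test were chosen, so the p-values below are not free of selection. Chil3 was 3.89-fold lower in responders, a difference of -1.96 ± 0.50 on the log2 scale with a 95% interval of -3.01 to -0.91. All 3 responders lay below all 9 non-responders, which 0.901% of 14984 genes measured on every array also did, beside 0.974% with the responders above. The same order at each time follows from this separation and adds no support. At 2 weeks the responder had -2.11 and the 4 non-responders -1.32 to 0.20. At 3 weeks the responders had -1.67 and -3.54 and the 5 non-responders -1.41 to 0.47. The difference did not pass the test over all genes (limma, adjusted p = 0.528), in which 0 of 18553 genes passed and 1174 had an unadjusted p under 0.05 (percent called: 0). Taken alone, Chil3 had an exact permutation p of 0.00909 (two-sided), the smallest that the 220 ways to draw 3 of 12 tumours allow, and the other 6 genes had exact p-values of 0.3 to 0.955. These single-gene values are not adjusted for the 7 genes, and they treat the 12 tumours as independent. Responder 3 carries the same mouse number as non-responder 1. Within the arrays of the hyphen spelling the difference was -2.29 (3 against 2 tumours), and the arrays of the other spelling hold no responder. Without responder 3, the lowest, it was -1.41, and without both tumours of 1 mouse number -1.44.

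Arg1 was 0.61 ± 0.62 higher in responders than in non-responders, with a 95% interval of -0.69 to 1.90 (limma, adjusted p = 0.943). Responder 1 was the highest of all 19 tumours at 1.89, responder 3 at -0.47 was below the non-responder mean, and without responder 1 the difference was -0.0164. Between 3 and 2 weeks, with response in the fit, neither gene passed. Arg1 differed by -0.19 ± 0.45 (adjusted p = 0.971) and Chil3 by 0.13 ± 0.43 (adjusted p = 0.982), again with 0 of 18624 genes passing and 825 at an unadjusted p under 0.05 (percent called: 0). The 95% intervals, -1.16 to 0.79 for Arg1 and -0.81 to 1.07 for Chil3, leave room for a change of either sign.

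Arg1 and Chil3 can be set against each other in each tumour. All 7 untreated tumours had Arg1 below 0, and 6 of 7 had Chil3 above 0. All 3 responders had Chil3 below every other tumour, with Arg1 on both sides of 0. Untreated replicate 5 (Arg1 -1.05, Chil3 -0.23) lay beside non-responder 7 (-1.05 and -0.57), so the groups touched. The choice of the genes shaped how far the untreated tumours lie from the rest. Within groups no such relation passed a test: once the group means were taken off, Arg1 and Chil3 had a Pearson r of -0.177 (permutation p = 0.504, adjusted p = 0.911 over 21 pairs of members) and a Spearman rho of -0.144 (permutation p = 0.588, adjusted p = 0.987), and r was -0.187 without the 2 tumours farthest out in Arg1.

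**Figure D2:**
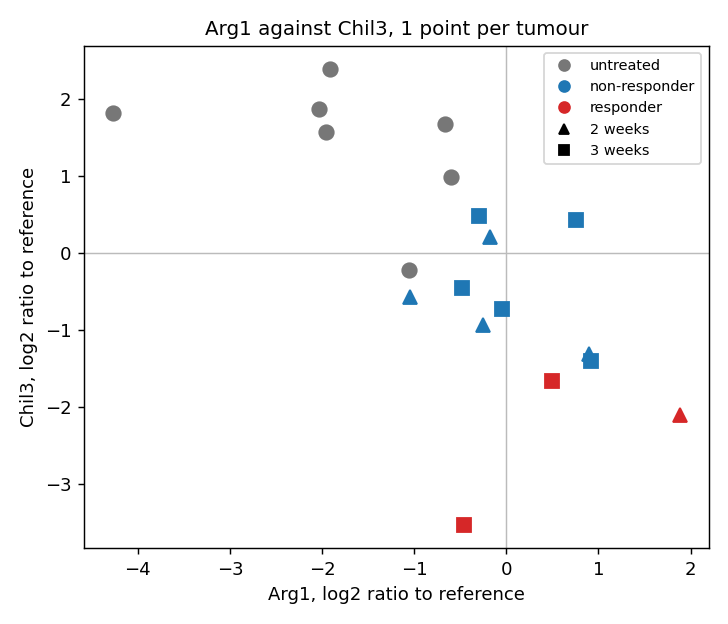
Arg1 (x axis) against Chil3 (y axis), both as log2 ratio to the reference, 1 point per tumour (grey untreated, blue non-responders, red responders, triangles 2 weeks, squares 3 weeks). In 6 of 7 untreated tumours Chil3 is above 0 with Arg1 below 0. Untreated replicate 5 (Chil3 -0.23) lies beside non-responder 7, at the edge of the non-responders, and the responders are the lowest in Chil3. Within a group the points show no clear slope (r -0.177 after removal of group means).

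Retnla, whose product is a secreted resistin-like protein, varied more between tumours of a group than between groups. In untreated tumours it ran from -3.46 over a median of -1.48 to 1.22, and in non-responders from -3.43 over -2.40 to 0.56. The responders had -0.36, -0.81 and -2.43. The groups overlapped throughout, and 7 of 12 treated tumours lay below the untreated mean. The difference between treated and untreated tumours was -0.14 with a 95% interval of -1.46 to 1.18 (limma, adjusted p = 0.93), which spans larger changes in both directions. In this comparison 678 of 18553 genes passed (3.65%), 410 higher (2.21%) and 268 lower (1.44%) in treated tumours, and 0 of the 5 genes tested did.

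Mrc1, the mannose receptor of the macrophage surface, ran from -2.02 over a median of -1.37 to -0.15 in untreated tumours and from -1.84 over -0.58 to 0.63 in non-responders. The responders had -0.20, 0.28 and -3.25, so that they held both a value above every untreated tumour and the lowest value of all. The treated mean was 0.56 above the untreated one, with a 95% interval of -0.40 to 1.51 (limma, adjusted p = 0.539). Responder 3, the tumour at -3.25, was also the lowest in Chil3 and had the lowest level of the macrophage markers among treated tumours (0.975). Responders 1 and 2 had macrophage marker levels of 1.73 and 2.06, with Chil3 at -2.11 and -1.67. What the macrophage level contributes to either gene was not tested. The difference in Mrc1 between responders and non-responders was -0.46 with responder 3 and 0.64 without it.

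Cd163 was the nearest of the 5 to the threshold. Untreated tumours ran from -2.44 over a median of -1.18 to 0.11, and non-responders from -3.36 over -1.85 to -0.33. The responders had -1.75, -2.01 and -2.17. Of the 12 treated tumours 11 lay below the untreated mean, but only 2 lay below every untreated tumour. The difference was -0.72 ± 0.33 with a 95% interval of -1.42 to -0.03, and it did not pass over all genes (limma, adjusted p = 0.229). Responders and non-responders differed by -0.06 with an interval of -1.06 to 0.95 (adjusted p = 0.999).

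The averages of Nos2 and Il10 over their spots were near 0 in every group, and the single spots differed among themselves. Nos2, the inducible nitric oxide synthase, had means of 0.06 ± 0.37 (SD, n = 7) in untreated tumours, 0.27 ± 0.11 (n = 9) in non-responders and 0.27 ± 0.19 (n = 3) in responders. All 12 treated tumours were above the untreated mean and none was above the highest untreated tumour (0.70). The difference was 0.21 with an interval of -0.08 to 0.49 (limma, adjusted p = 0.421). Il10 had means of 0.10 ± 0.39, 0.37 ± 0.30 and 0.42 ± 0.36 in the same order. Of the treated tumours 11 of 12 exceeded the untreated mean, and the difference was 0.29 with an interval of -0.07 to 0.64 (limma, adjusted p = 0.367).

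**Figure D3:**
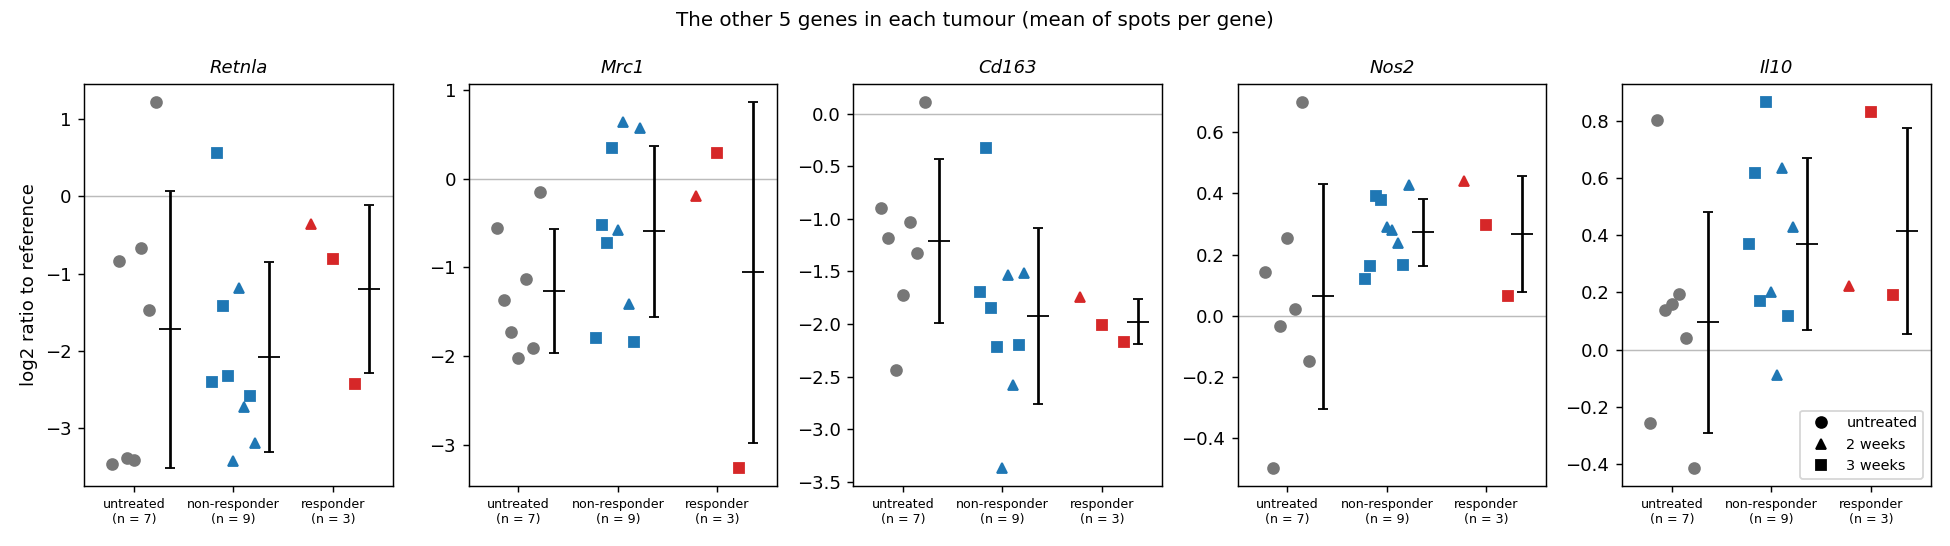
Retnla, Mrc1, Cd163, Nos2 and Il10 as log2 ratio to the reference in each tumour (mean of the gene's spots), with separate y axes. Points are tumours as labelled below each panel (triangles 2 weeks, squares 3 weeks, circles untreated), and bars are the group mean ± SD. The groups overlap in all 5 panels. The mean of the Nos2 spots spreads more in untreated tumours (SD 0.37) than in non-responders (SD 0.11), but these spots hardly follow each other (median correlation 0.029).

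In the fit of 3 groups, 283 of 18553 genes passed between non-responders and untreated tumours (1.53%, with 0.879% higher and 0.647% lower) and 14 between responders and untreated tumours (0.0755%, with 0.0323% higher and 0.0431% lower), with the untreated arrays shared, and none of these was one of the 5 tested genes. Non-responders differed from untreated tumours by -0.36 in Retnla, 0.67 in Mrc1, 0.21 in Nos2, -0.71 in Cd163 and 0.27 in Il10 (limma, adjusted p = 0.837, 0.519, 0.501, 0.324 and 0.475). Responders differed from them by 0.52, 0.21, 0.20, -0.76 and 0.32 in the same order (adjusted p = 0.835, 0.917, 0.677, 0.476 and 0.573). Against 2 weeks, tumours at 3 weeks differed by 0.48 in Retnla, -0.84 in Mrc1, -0.12 in Nos2, 0.37 in Cd163 and 0.17 in Il10, with adjusted p-values of 0.94 to 0.952. None of these differences passed the test.

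How far a value of a gene can be trusted differed with its spots. The 2 spots of Retnla followed each other over the 19 arrays with r = 0.984, above 99.9% of 5126 genes with 2 spots (median 0.252), and never differed by more than 0.876. The large spread of Retnla within groups was thus seen by both spots. Nos2 had 10 spots, of which 8 were measured on enough arrays, and Il10 had 10. The median correlation between spots of a gene was 0.029 for Nos2 and 0.089 for Il10, where 217 genes with at least 8 spots had a median of 0.706. On 18 arrays for Nos2 and 17 for Il10 the spots lay on both sides of 0. Treated minus untreated ran from -0.61 to 0.85 over the spots of Nos2, with 6 of 8 positive, and from -0.47 to 0.80 over those of Il10, with 8 of 10 positive. The mean over these spots is therefore a poor measure of the level of either gene, and a change of Nos2 or Il10 could be missed here. Arg1, Chil3, Mrc1 and Cd163 rest on 1 spot each, so no second spot bears on them.

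**Figure D4:**
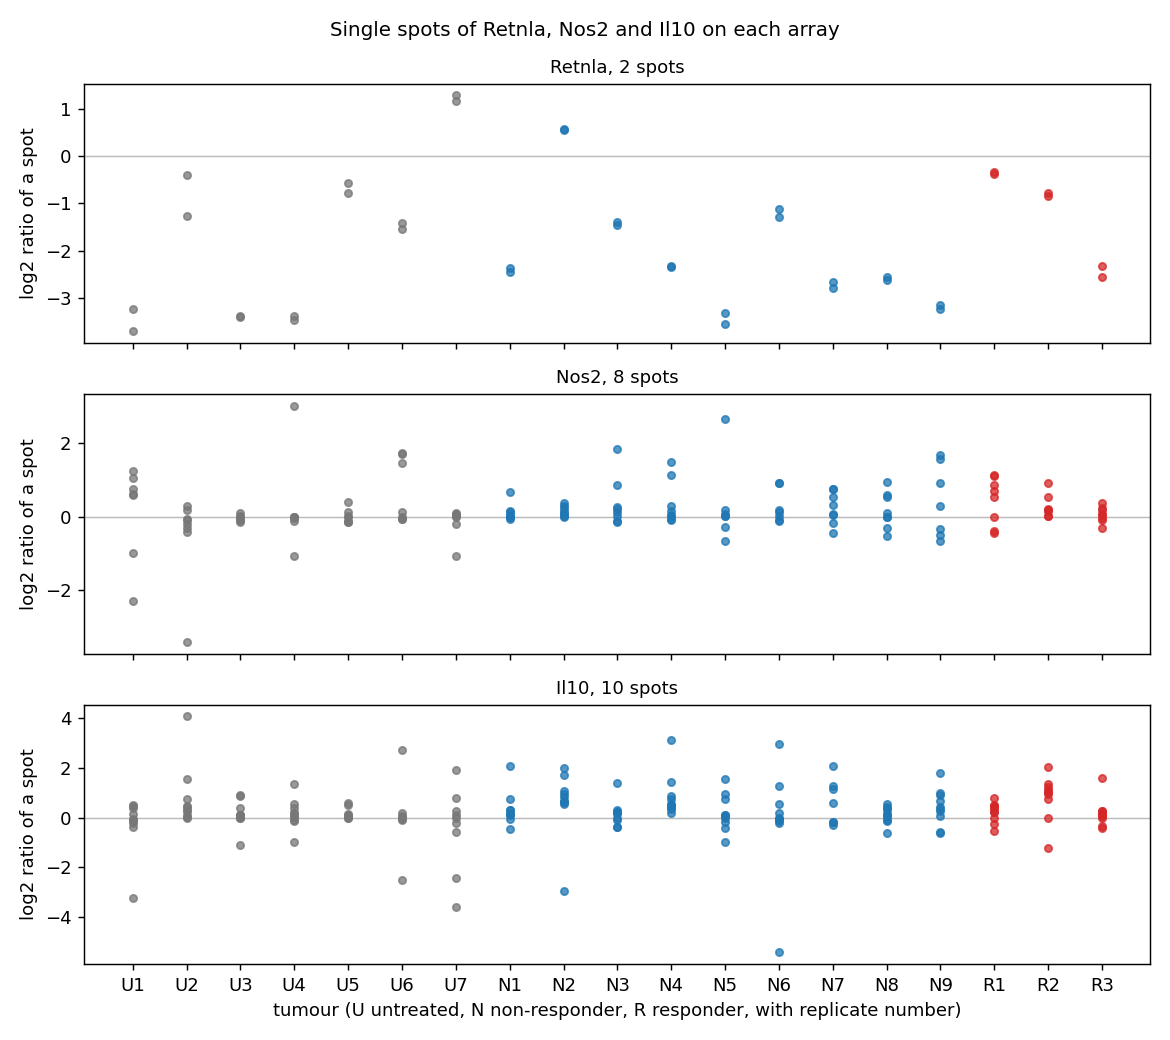
Single spots of Retnla (2), Nos2 (8) and Il10 (10) as log2 ratio on each of the 19 arrays (U untreated, N non-responder, R responder, with replicate number). The Retnla spots nearly coincide on most arrays (largest gap 0.876), while the spots of Nos2 and Il10 lie on both sides of 0 on 18 and 17 arrays.

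Among the 21 pairs of genes, tested on deviations from the 3 group means with 100000 permutations within groups, 2 passed by Pearson's r. Retnla and Cd163 were high in the same tumours, with r = 0.761 (permutation p = 0.0004, adjusted p = 0.0084, n = 19). Spearman's rho was 0.588 (permutation p = 0.0133, adjusted p = 0.0932), and r was 0.518 without the 2 tumours farthest out. Those with the highest values of both genes were untreated replicate 7 (Retnla 1.22, Cd163 0.11) and non-responder 2 (0.56 and -0.33). They also had the highest mean level of 10 adipocyte markers, -0.081 and -0.364, where the other 17 tumours ran from -3.27 to -0.849. The part of fat tissue in the pair's relation was not tested. Arg1 and Mrc1 had r = 0.633 (permutation p = 0.00425, adjusted p = 0.0446), rho 0.654 (permutation p = 0.00653, adjusted p = 0.0686) and r = 0.668 without 2 tumours. Arg1 and Cd163 had r = 0.516 (permutation p = 0.0265, adjusted p = 0.185) and rho 0.626 (permutation p = 0.00463, adjusted p = 0.0686), and r was 0.552 without 2 tumours. By rho, 0 of 21 pairs passed. Chil3 had no pair with an adjusted p below 0.5.

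The genes most like Arg1 over the 19 tumours, by Pearson's r of the same deviations among 14983 genes, were Selenbp1 (0.877), Wdr81 (0.847), Robo1 (0.845), Nxn (0.842) and Procr (0.839). Of these, Nxn rose in treated tumours, by 1.13 (limma, adjusted p = 0.0159), and the others did not pass. Those most like Chil3 were Foxd3 (0.811), Tjp3 (0.809), Katnal2 (0.775), Haus4 (0.755) and Celf2 (0.754), none of which passed between treated and untreated tumours. With deviations from 2 group means (treated and untreated) in place of 3, the genes like Arg1 ranked 1 to 10, whereas those like Chil3 fell to ranks 19 to 545. By Spearman's rho on deviations from 3 group means they ranked 5 to 13 for Arg1 and 1 to 51 for Chil3. These genes were picked as the highest of 14983 values of r, so they are a ranking without a test.

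Related genes were read from lists that leave out the 7 genes. Over all 18553 genes, 2.21% rose and 1.44% fell in treated tumours. In lists this short, 1 passing gene is not read as a result about the list. Of 23 genes of alternative activation, 0 rose and 1 fell in treated tumours: Egr2, a zinc-finger factor that is also an immediate-early gene, by 2.09 (SE 0.41, limma, adjusted p = 0.0126). It passed in non-responders against untreated tumours too (-1.92, adjusted p = 0.0351). The median difference of the list was 0.45, beside 0.026 over all 18553 genes. The scavenger receptor gene Msr1, of both this list and the next but one, had 0.90 (adjusted p = 0.0543). Of 22 genes of classical activation, 2 rose and 0 fell: the costimulatory receptor Cd40 by 0.68 ± 0.17 (adjusted p = 0.0300) and the costimulatory ligand Cd86 by 0.89 ± 0.22 (adjusted p = 0.0335), with a list median of 0.678. Of 20 genes for scavenging and haemoglobin handling, 1 rose, the folate receptor Folr2, by 1.27 ± 0.32 (adjusted p = 0.0354), with a list median of 0.272. Folr2 did not pass in 8 of 19 fits that left out 1 tumour each (adjusted p up to 0.0886).

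Of the signalling genes, the IL-4 receptor chain Il4ra rose by 0.82 ± 0.22 (limma, adjusted p = 0.0417). It was the single gene that passed among 18 for IL-4 and IL-13 signalling (list median 0.074), where 2.21% of all genes rose. It did not pass in 12 of 19 fits that left out 1 tumour each (adjusted p up to 0.108), nor without both tumours of 1 mouse number (adjusted p = 0.0645). The kinase gene Jak3 had 0.47 (adjusted p = 0.162). Of 13 genes of IL-10 signalling 0 passed (median 0.03), and the lowest adjusted p-values were 0.118 for Nfil3 (0.67) and 0.177 for Prdm1 (0.59). Around Arg1 itself, the 24 genes of arginine and polyamine metabolism had a median of 0.201. Of all genes 2.21% rose and 1.44% fell, and of these 24, 0 fell and 4 rose. They were Odc1, which turns ornithine into putrescine (0.66, adjusted p = 0.0344), Srm, which makes spermidine (0.72, adjusted p = 0.0260), the antizyme gene Oaz2, which restrains Odc1 (0.75, adjusted p = 0.0352), and Asl, which makes arginine from argininosuccinate (0.59, adjusted p = 0.0378). Of these, Odc1 also passed in non-responders alone (0.73, adjusted p = 0.0428). The 4 did not pass after quantile normalization, with adjusted p-values of 0.0528 to 0.123. None of them passed when untreated replicate 2, 4 or 6 was left out.

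The chitinase-like and resistin-like relatives gave no gene that fell, with Chil3 left out. Of 10 genes, 1 rose, Chid1, by 0.95 ± 0.26 (limma, adjusted p = 0.0479), beside 2.21% of all genes. The list median was 0.082, with differences of -0.77 to 0.95. Chid1 did not pass in 14 of 19 fits that left out 1 tumour each (adjusted p up to 0.119), nor with values at 0 kept (adjusted p = 0.0531). Chil4, the neighbour whose upstream sequence aligns with that of Chil3, had a mean of -2.38 ± 0.55 (SD, n = 7) in untreated tumours. In treated tumours the mean of Chil4 was -1.60 ± 0.70 (SD, n = 12). It was 0.78 ± 0.30 higher in treated tumours, in 11 of 12 of them above the untreated mean, and did not pass (adjusted p = 0.136). The probe sequences are not analysed here, so whether the spots of Chil3 and Chil4 read each other's RNA is not known.

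Between treated and untreated tumours, 2.21% of all 18553 genes rose and 1.44% fell. Markers of the cells that could hold the 7 genes moved as follows in this comparison. Of 22 macrophage markers, 4 rose and 0 fell: the complement genes C1qa (1.05, limma, adjusted p = 0.0335) and C1qb (0.89, adjusted p = 0.0303), the adaptor gene Tyrobp (1.01, adjusted p = 0.0344) and the lysozyme gene Lyz2 (0.82, adjusted p = 0.0463). Their list median was 0.524, and the mean level of the list ran from 0.522 to 1.26 in untreated, from 1.08 to 1.81 in non-responder and from 0.975 to 2.06 in responder tumours. Of 13 neutrophil markers 0 passed (median difference 0.219), with mean levels of -2.75 to -1.45 in untreated and -2.15 to -0.415 in treated tumours. None of 5 eosinophil, 10 mast cell, 9 dendritic cell, 12 T and B cell, 10 adipocyte and 8 hepatocyte markers passed, and their list medians were 0.859, -0.063, 0.174, 0.447, 0.303 and 0.053. Of 11 squamous epithelium markers 1 rose (Tgm1, 1.24, adjusted p = 0.0107), of 12 endothelial markers 2 (Eng 0.81 and Vwf 0.90, adjusted p = 0.0233 and 0.0437), and of 12 epithelial markers 1 (Krt14, 1.03, adjusted p = 0.0382), with list medians of 0.672, 0.142 and -0.24. The mean level of the epithelial markers overlapped, from 0.791 to 1.15 in untreated and from 0.628 to 1.14 in treated tumours. Their part in the values of Arg1 and Chil3 was not tested. In responders against non-responders, 0 genes passed in any of these lists, and of the 12 epithelial genes 1, Elf5, fell in responders against untreated tumours (-2.75, adjusted p = 0.0455).

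**Figure D5:**
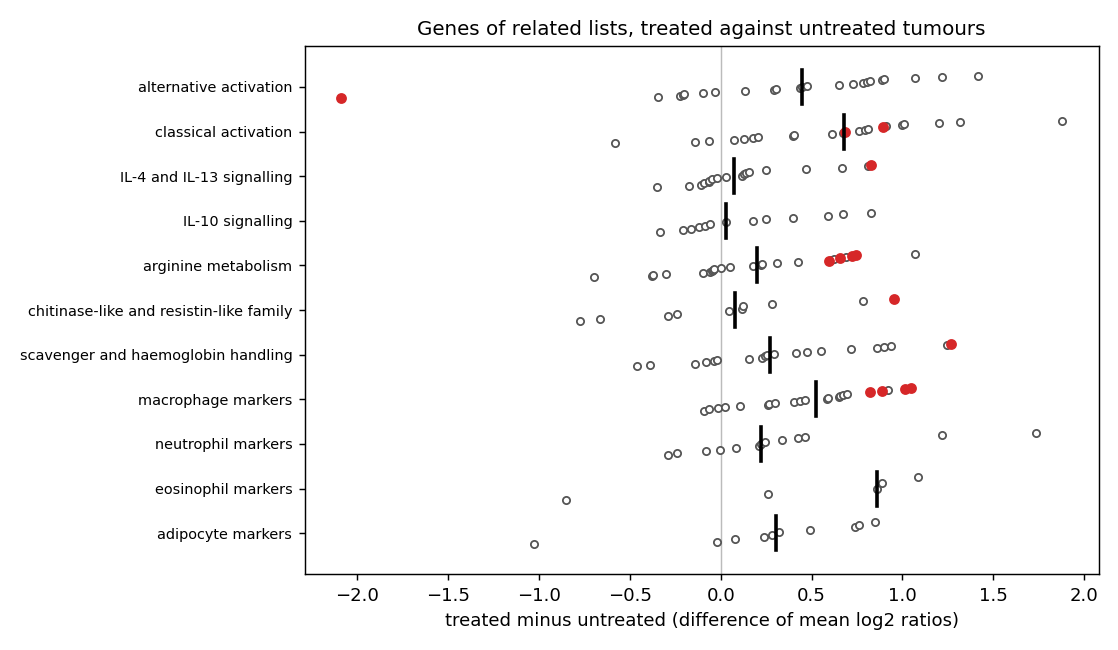
Difference of mean log2 ratios, treated minus untreated, for each gene of 11 lists (rows). Open circles are genes that did not pass, filled red circles genes with an adjusted p under 0.05, and the black bars are list medians. The arginine and macrophage lists hold 4 red points each, all to the right of 0, and Egr2 is the single red point to the left, at -2.09.

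These list counts rest on few arrays. Of the 18 list genes that passed between treated and untreated tumours, Egr2 and Tgm1 passed in all 19 fits that left out 1 tumour each, and each of the other 16 missed the threshold in at least 3 of them. Leaving out 1 tumour at a time, the number that passed ran from 0 to 6 for macrophage markers (0 without untreated replicate 4, 6 without untreated replicate 1), from 0 to 5 for arginine metabolism and from 0 to 3 for classical activation. Within the hyphen arrays 0 genes of these 3 lists passed, and within the arrays of the other spelling 1 of each.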

How the data were processed

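RNA of 19 tumours, labelled with Cy5, was set against a whole-mouse reference labelled with Cy3, 1 array per tumour with no dye swap, per the labels. The values deposited by the authors are log2 ratios as far as their range shows. For log base, direction, background correction, normalization and filters the sources used here give nothing. The direction, tumour over reference, is likely: 8 hepatocyte markers averaged -4.91 to -2.84 in untreated tumours. With the ratio turned, every sign would turn.

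Each array had 45220 spots, 738 to 4115 of them (1.63% to 9.10%) at exactly 0, taken as missing. Spots with 1 annotated gene (33653; 56 had several and 11511 none) and measured on at least 70% of arrays were averaged per gene, which left 18553 genes. Of the gene identifiers, 99.6% matched the RefSeq table of GRCm38.p6. Signal over background was not used here, so the number of arrays limits the precision.

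limma 3.58.1 in R 4.3.3 (lmFit, eBayes, two-sided) was run on simulated data first and then fitted with 2 groups (treated, untreated), with 3 groups, and over 12 treated arrays with response as covariate. P-values were adjusted by Benjamini-Hochberg over all genes, with a threshold of 0.05. Alternatives were the handling of 0, the spot filter, the most variable spot, quantile normalization, median centring, title spelling, the tumours of 1 mouse number and leaving out each array.

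The members, gene lists and tests were chosen with earlier results of these data known. The text names all members, the 5 genes most like Arg1 and Chil3, and list genes that passed. Where fewer than 2 of a list passed, those with the smallest p are named too, except in the lists of cell type markers.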

Additional observations from a re-analysis of the deposited data

Results flagged for a closer look

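By Dixon's test at the 95% level, 1 value stood apart from the rest of its group. The 14 groups tested were the 7 genes in the 7 untreated tumours and in the 9 non-responders. Arg1 in untreated replicate 4 was -4.27, with a gap to the next tumour of 0.609 of the group's range, above the critical value of 0.568. Chance alone passes about 1 in 20 such groups. Arg1 was chosen by its values in untreated and treated tumours, so this flag is a description of a chosen gene. Untreated replicate 4 also had the lowest mean levels of macrophage (0.522), neutrophil (-2.75), dendritic cell (-0.061) and T and B cell markers (-0.776). It was not the lowest in eosinophil, mast cell, adipocyte, squamous epithelium, hepatocyte, endothelial or epithelial markers. What these levels contribute was not tested.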

How the results depend on the processing

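The number of genes that passed moved more than the members did. Treated against untreated, 678 genes passed; with spots measured on every array 1313 did, within hyphen arrays 2, within arrays of the other spelling 262, and leaving out 1 tumour 212 (without untreated replicate 4) to 1183 (without untreated replicate 1). Responders against non-responders, 0 genes passed; without both tumours of 1 mouse number 1 did, and leaving out 1 tumour 0 to 12 (without responder 1). Non-responders against untreated, 283 passed; 694 with spots on every array, 184 with the most variable spot, 0 within hyphen arrays, 167 without both tumours, and 33 (without untreated replicate 4) to 607 (without untreated replicate 1) leaving out 1. Responders against untreated, 14 passed. With values at 0 kept 39 did, with spots on every array 366, with title spelling as covariate 1 and within hyphen arrays 0. Without both tumours of 1 mouse number 5 passed. Leaving out 1 tumour gave 3 (in several fits, among them without untreated replicate 2 or 4) to 396 (without untreated replicate 1). Between 3 and 2 weeks 0 passed in every setting.

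Of 406 values of the 7 genes under other settings, 372 kept their direction and 34 turned, all of differences that had not passed. Arg1 and Chil3 against untreated tumours are not tested here, so those values bear on direction only. No tested difference of the 7 genes passed under any setting. Treated against untreated, Retnla was 1.06 and Mrc1 -0.13 within hyphen arrays, and Retnla -0.43 to 0.35 (without untreated replicate 7) leaving out 1 tumour. Responders against non-responders, within hyphen arrays Retnla was -0.28, Mrc1 0.10, Nos2 0.23 and Il10 -0.078; with title spelling as covariate Nos2 was 0.19 and Il10 -0.11; without both tumours of 1 mouse number Mrc1 was 0.49, Nos2 0.0049 and Cd163 0.0709; Nos2 was 0.0236 with values at 0 kept and 0.0105 without the spot filter. Leaving out 1 tumour there, Arg1 ran from -0.0164 to 1.16, Mrc1 from -1.13 to 0.64, Nos2 from -0.0915 to 0.0953, Cd163 from -0.24 to 0.14 and Il10 from -0.16 to 0.16. Non-responders against untreated, Retnla was 1.23, Mrc1 -0.19 and Cd163 0.026 within hyphen arrays, and Retnla -0.69 to 0.13 (without untreated replicate 7) leaving out 1. Responders against untreated, Mrc1 was -0.0918 within hyphen arrays and, leaving out 1 tumour, -0.46 (without responder 2) to 1.31. At 3 against 2 weeks, within hyphen arrays Chil3 was -0.50, Retnla -1.27 and Cd163 -0.35, Arg1 was 0.20 within those of the other spelling, 0.0206 without both tumours and -0.48 to 0.32 (without responder 1) leaving out 1, Chil3 was -0.0001 with title spelling and -0.0587 (without non-responder 9) to 0.34 leaving out 1, and Il10 -0.0245 with spots on every array. The cause was not tested.

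Chil3 in responders against non-responders stayed negative in every setting, from -2.34 to -1.41 with 1 tumour left out, and its adjusted p was 0.319 to 1. No paired analysis was possible because the labels give no replicate numbers shared between groups, and the groups share only 1 mouse number. Mouse number as a random block was not run, since limma's duplicateCorrelation returned no value with a single pair of tumours. With 3 responders, an effect of that size may be missed.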
